A study of Homo sapiens with 2 samples.

Results

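Small nucleolar RNAs (snoRNAs) and small Cajal body RNAs were compared between a K562 culture given doxycycline for 96 h and a K562 culture given none. K562, an established human line from chronic myeloid leukaemia, has the BCR-ABL fusion, and both cultures contained the same inducible short hairpin RNA against BMI1, a Polycomb repressive complex 1 subunit. The members were taken by name, as rows of the deposited table annotated with a single gene symbol starting with SNORD, SNORA or SCARNA. There were 198 such rows of 33297, for 192 symbols: 64 SNORA rows, 19 SCARNA rows and the rest SNORD, of which 46 rows belong to imprinted tandem families and 69 do not. A subset was then selected on the measured values, namely the 126 rows whose higher log2 value of both samples was at least 6 (the floor), which were 59 SNORD, 51 SNORA and 16 SCARNA rows. Members under the floor numbered 72.

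Each group held 1 sample and 1 array, so no spread between cultures could be estimated and no test was made. Values are log2 RMA values of single probe sets, and a difference is the doxycycline value minus the control value. No sample received doxycycline without the hairpin, and the labels do not say whether the line is 1 clone, so the hairpin, the drug and any other difference between the cultures cannot be told apart. In these bulk samples, fewer cells of a kind and less RNA per cell cannot be told apart either. The BMI1 probe set, shared with the COMMD3-BMI1 read-through, read 10.84 in the control sample and 10.00 in the doxycycline sample. K562 markers had a row for 8 of 9 genes, all 8 above the floor. All 8 were lower with doxycycline (median -0.22), and the sum of their unlogged values was 17100 against 20400. Of 14 measured markers of other cell types, 10 also reached the floor, and these differed in both directions. Higher with doxycycline were the monocyte genes LYZ (0.28) and CD14 (0.01) and the fibroblast genes COL1A2 (0.06) and COL3A1 (0.01). Lower were the fibroblast gene COL1A1 (-0.11), the B cell gene CD79A (-0.25), the T cell gene CD3D (-0.08) and all 3 epithelial genes (median -0.05). In the control sample the epithelial genes KRT8, KRT18 and EPCAM read 11.82, 11.63 and 8.91. The T cell gene CD3D read 7.45 there, but CD3E and CD3G were under the floor at 5.70 and 5.81. ALB, a hepatocyte gene, was at 4.23. The floor of 6 was not tested as a limit of expression.

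C/D box snoRNAs (SNORD) guide methylation of the ribose in ribosomal RNA (rRNA) and are bound by fibrillarin, NOP56, NOP58 and SNU13. H/ACA box snoRNAs (SNORA) guide the conversion of uridine to pseudouridine and are bound by dyskerin (DKC1), NHP2, NOP10 and GAR1. Small Cajal body RNAs (SCARNA) carry one or both kinds of box and guide the same modifications in the small nuclear RNAs of the spliceosome. Most human snoRNAs are cut out of introns of host genes, many of which encode ribosomal proteins or are spliced non-coding RNAs.

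Sequences are shown for the features of the class that the deposited names do not convey, the H/ACA box and the transcription starts of host genes. SCARNA16 overlaps the microRNA gene MIR6516 in RefSeq, so the last 77 bases of SCARNA16 could be read from that hairpin (GRCh38.p14, chr17:77089417-77089493, + strand). They are printed with the ACA box in capitals, which stands 3 bases from the end, the place that gives the class its name.
SCARNA16, last 77 bases: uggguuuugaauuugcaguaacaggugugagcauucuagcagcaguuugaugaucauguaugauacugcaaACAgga
Host genes of snoRNAs often begin with a C followed by a run of C and T bases, known as a 5′ terminal oligopyrimidine (TOP) start, which places their translation under growth control. The host starts below give 25 bases before and 15 bases from the RefSeq start of hosts with several members in this table, on GRCh38.p14, with capitals for a C at the start followed by at least 4 bases that are each C or T.
RPL13A, chr19:49487583-49487622, + strand: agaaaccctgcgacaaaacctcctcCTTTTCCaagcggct
RABGGTB, chr1:75786231-75786270, + strand: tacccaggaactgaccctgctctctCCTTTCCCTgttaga
SNHG5, chr6:85678719-85678758, - strand: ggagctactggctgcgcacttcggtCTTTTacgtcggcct
SNHG1, chr11:62855871-62855910, - strand: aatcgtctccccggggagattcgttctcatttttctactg
RPL3, chr22:39319609-39319648, - strand: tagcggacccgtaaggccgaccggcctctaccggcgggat
GAS5, chr1:173869031-173869070, - strand: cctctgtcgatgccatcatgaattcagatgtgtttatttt
TBRG4, chr7:45111683-45111722, - strand: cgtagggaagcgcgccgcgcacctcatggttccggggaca
Of the 7 starts, those of RPL13A, RABGGTB and SNHG5 held the run and those of SNHG1, RPL3, GAS5 and TBRG4 did not hold it at that base. Only the annotated start base was searched, so a missing run does not show that a host lacks a TOP start.

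C/D box snoRNAs mostly read slightly lower with doxycycline. Of the 59 SNORD rows at or above the floor, 47 were lower (79.7%), 11 higher and 1 equal, with a median difference of -0.15, or 1.11-fold lower. Among all 14242 rows with 1 symbol at or above the floor, 48.8% were below 0 and 50.3% above it, with a median of 0.00. At least 1.2-fold lower were 13 SNORD rows (22.0%), against 4.22% of all such rows, and 1 was at least 1.2-fold higher, against 6.12%. At least 1.5-fold lower were 2, against 0.161% of all such rows, and 0 were that much higher, against 0.365%. Among the 47 lower rows and the 13 at least 1.2-fold lower, SNORD96B and SNORD14E reached 6 in the control sample alone. SNORD7, one of the 11 higher rows, reached it in the doxycycline sample alone. The middle of the SNORD rows lay between -0.25 and -0.04. As a scale for single rows, a robust SD was taken over the differences of the 500 other named rows nearest in level, which describes genes and not replicate error. Its median was 0.14 for SNORD rows, and 27 of 59 SNORD differences, 29 of 51 SNORA differences and 6 of 16 SCARNA differences were no larger than their own robust SD. The lower values of the K562 markers lay in the same direction as the SNORD rows, and their part in the result was not tested.

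**Figure D1:**
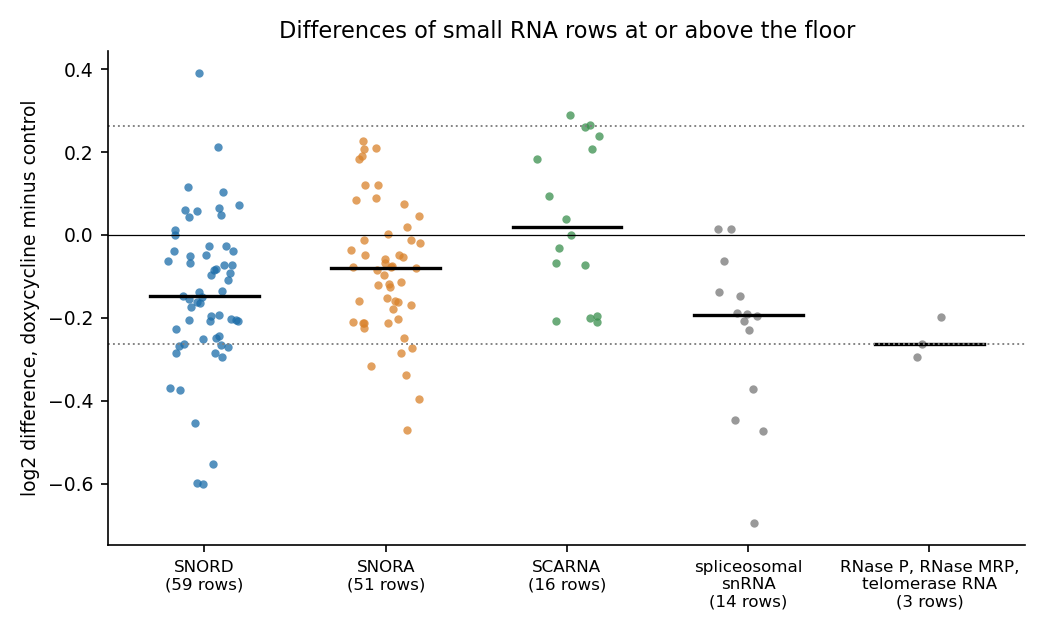
Log2 difference, doxycycline minus control, of each probe set row at or above the floor of 6, with black bars at the median of each class and dotted lines at 1.2-fold. SNORD rows centre on -0.15, SNORA rows on -0.08 and SCARNA rows on 0.02, and the spliceosomal snRNA rows (identical rows counted once) on -0.19.

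H/ACA box snoRNAs also read mostly lower, with a median nearer to 0. Of the 51 SNORA rows at or above the floor, 38 were lower (74.5%) and 13 higher, with a median difference of -0.08. At least 1.2-fold lower were 6 (11.8%), against 4.22% of all rows with 1 symbol at or above the floor. At least 1.2-fold higher were 0, against 6.12%. None reached 1.5-fold in either direction (0 of 51). Of all such rows only 0.161% were that much lower and 0.365% higher, so this is no result about the class. SNORA10 has 2 rows with identical values and SNORA15 has 2, so these rows repeat 1 measurement each. With identical rows counted once, 36 of 49 SNORA rows were lower and the median was again -0.08.

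Small Cajal body RNAs lay on both sides of 0. Of the 16 SCARNA rows at or above the floor, 7 were lower (43.8%), 8 higher and 1 equal, with a median of 0.02. At least 1.2-fold higher were 2 (12.5%), against 6.12% of all rows with 1 symbol at or above the floor. At least 1.2-fold lower were 0, against 4.22%. With 16 rows, such counts are no result about the class. The 16 rows stand for 13 symbols. With only the brightest row of each symbol, 7 of 13 were lower and the median was -0.03, so the class has no settled direction.

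**Figure D2:**
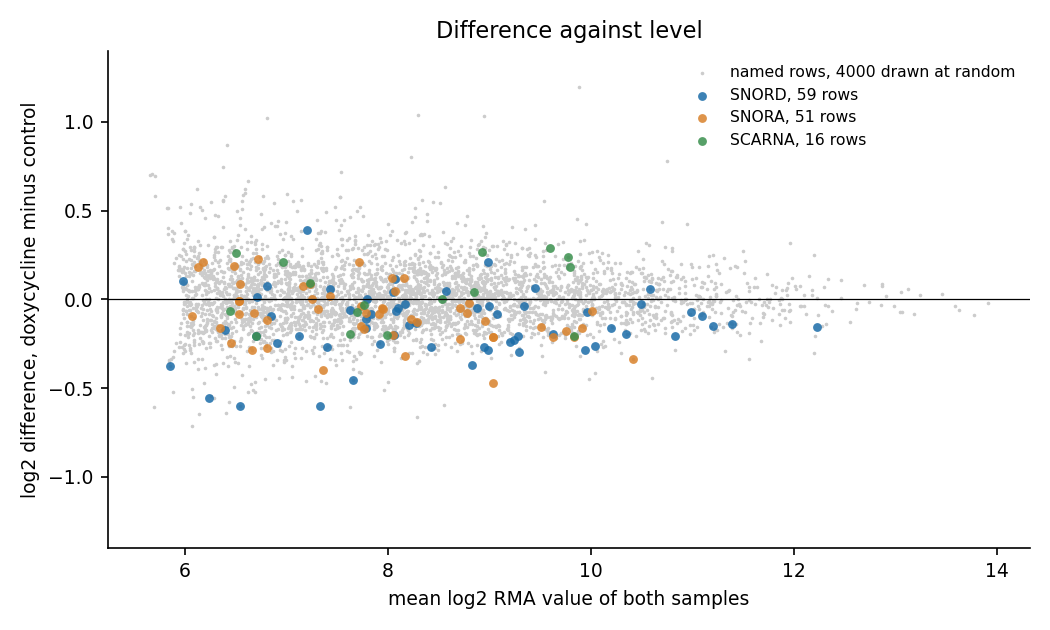
Log2 difference against mean log2 RMA value for the 59 SNORD, 51 SNORA and 16 SCARNA rows at or above the floor, over 4000 randomly drawn named rows in grey. SNORD rows sit mainly below the 0 line from the dim to the bright end, up to SNORD33 near 12.

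The C/D box rows past 1.5-fold were SNORD14C and SNORD1A. SNORD14C, a copy of U14, a snoRNA needed to process the 18S rRNA precursor and encoded in introns of the chaperone gene HSPA8, read 7.03 with doxycycline and 7.63 without. Its difference of -0.60 is 1.52-fold lower, where the robust SD of rows of like level was 0.15. SNORD14E, another copy in the same host, read 5.66 against 6.04 and reached 6 in the control sample alone, so it is no support for SNORD14C. Copies of U14 resemble each other in sequence, so how far the rows measure separate RNAs is uncertain. SNORD1A, encoded in the non-coding host SNHG16, read 6.24 against 6.84, a difference of -0.60 and 1.51-fold lower. The other SNHG16 member with a row of its own, SNORD1B, stood under the floor at 5.47 against 5.69.

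The next members were lower by smaller steps and several came from well-known hosts. SNORD96B read 5.96 against 6.52 (-0.55), and reached 6 in the control sample alone. SNORD49A, encoded in SNHG29, read 7.43 against 7.89 (-0.45). SNORD45C, one of 3 members in RABGGTB, the gene for a subunit of the enzyme that adds lipid anchors to Rab proteins, read 8.64 against 9.01 (-0.37). The robust SD at the level of these 3 rows was 0.19, 0.15 and 0.14. The other RABGGTB members were also lower, SNORD45A at 11.13 against 11.28 (-0.15) and SNORD45B at 9.93 against 10.00 (-0.07). SNORD60, in SNHG19, read 8.29 against 8.56 (-0.27) and was the last of the 10 lowest.

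SNORD61 was the C/D box member that differed most in the other direction. Encoded in RBMX, the gene of an RNA-binding protein, it read 7.40 with doxycycline and 7.01 without (0.39), and was the only SNORD row at or above the floor to be at least 1.2-fold higher. SNORD59B, in the ATP synthase gene ATP5F1B, read 9.09 against 8.88 (0.21). Its neighbour in the same host, SNORD59A, read 6.78 against 7.03 (-0.25), so both members of 1 host lay on opposite sides of 0. SNORD94, SNORD7, SNORD38B, SNORD46, SNORD117, SNORD78, SNORD15A and SNORD36B made up the rest of the 10 highest, with differences from 0.11 down to 0.04.

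Members with a known part in cleaving or acetylating pre-rRNA pointed the same way as the modification guides. SNORD13 (U13), which directs acetylation of 18S rRNA and is a gene of its own rather than an intron product, read 10.73 with doxycycline and 10.94 without (-0.21). SNORD13P3, a pseudogene that the naming rule also takes, read 10.12 against 10.28 (-0.16), and since it resembles SNORD13 its signal is uncertain. U3, the C/D box RNA of early pre-rRNA cleavage, is covered only by rows that name SNORD3A, SNORD3B-1, SNORD3B-2, SNORD3C and SNORD3D together, so it is no member here. These rows read 12.82 against 13.02 (-0.21), with the same values in all 5. SNORD22, sharing a row with its host SNHG1, read 9.58 against 9.78 (-0.20). SNORA73A, the H/ACA box RNA U17 of 18S maturation, shares a row with SNHG3 and read 11.67 against 11.71 (-0.04).

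The RPL13A snoRNAs, known as mediators of lipotoxic stress, differed in one direction. All 4 were lower with doxycycline. SNORD32A read 9.15 with doxycycline and 9.44 without (-0.29), and SNORD34 read 8.85 against 9.14 (-0.29). SNORD35A read 9.53 against 9.73 (-0.19). SNORD33, one of the 5 brightest SNORD rows, read 12.15 against 12.30 (-0.15). RPL13A itself, which encodes a protein of the large ribosomal subunit, has no row of its own, so the host could not be set beside them.

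GAS5, a growth-arrest non-coding RNA whose introns hold many C/D box RNAs, gave 7 rows, of which 6 were lower. SNORD75 read 9.80 with doxycycline and 10.09 without (-0.28). SNORD79 and SNORD81 differed by -0.25 and -0.24, and SNORD44 by -0.19. Smaller differences were found for SNORD77 (-0.09) and SNORD74 (-0.07), and SNORD78 lay slightly above 0 at 10.61 against 10.56 (0.06). The range over 1 host, 0.34, was thus wider than the median difference of the class.

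Members of other hosts were mostly lower as well. The 3 members of RPL3, which encodes another large-subunit protein, were all lower, SNORD83A by -0.21, SNORD83B by -0.20 and SNORD43 by -0.04. RPL23A held SNORD42A (-0.17), SNORD4B (-0.08) and SNORD4A, which was equal in both samples at 7.80. The bright rows SNORD28 and SNORD30 of SNHG1 differed by -0.14 and -0.10, and SNORD50A and SNORD50B of SNHG5 by -0.21 and -0.15. Of 20 hosts with at least 2 different members at or above the floor, 12 had only lower rows, and the range within a host had a median of 0.16 and reached 0.46.

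**Figure D3:**
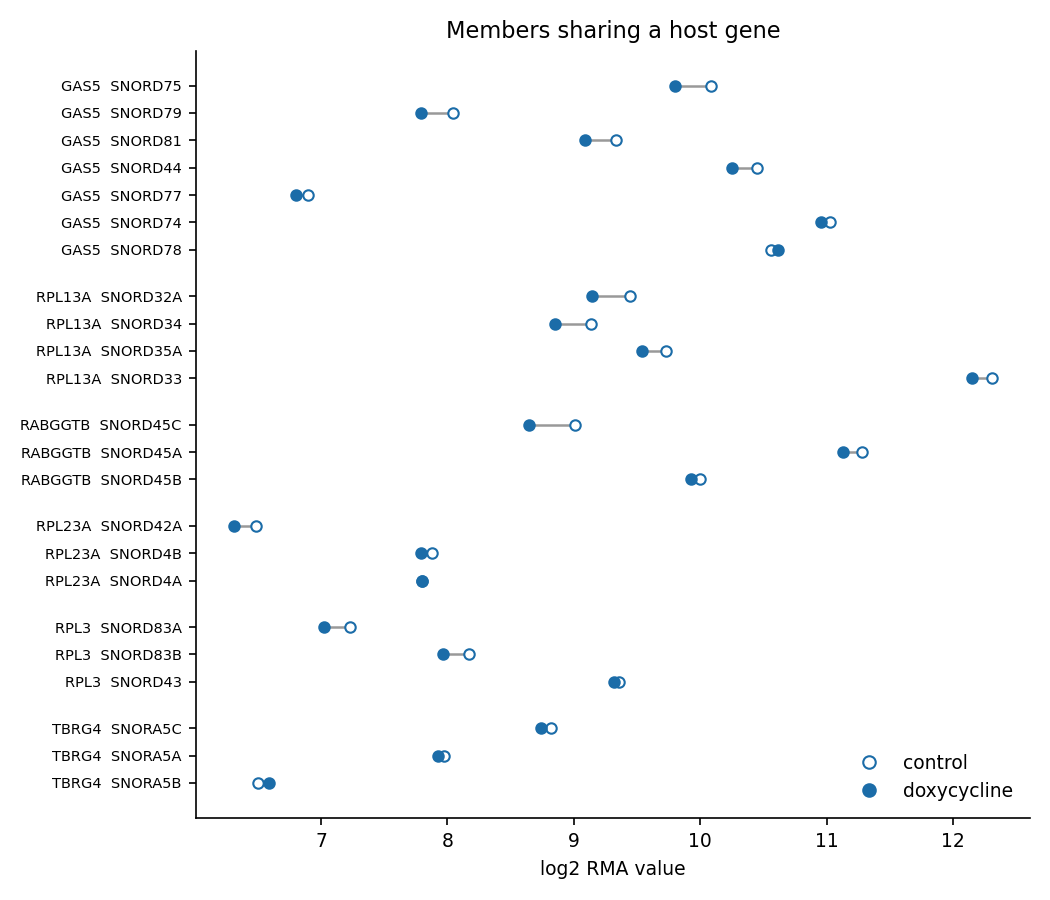
Log2 RMA values of the rows of 6 host genes with at least 3 members at or above the floor, open circles for the control sample and filled circles for the doxycycline sample. All 4 RPL13A members and 6 of 7 GAS5 members lie lower with doxycycline, while TBRG4 members lie on both sides.

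Among H/ACA box RNAs, SNORA24 had the lowest difference. It is a pseudouridine guide for 18S rRNA encoded in SNHG8 and read 8.81 with doxycycline and 9.28 without (-0.47), or 1.39-fold lower, with a robust SD of 0.14 at its level. SNORA20, in the chaperonin gene TCP1, read 7.17 against 7.56 (-0.40). SNORA29, in the same host, differed by only -0.08. SNORA71C, in the non-coding host SNHG17, read 10.25 against 10.59 (-0.34), and the related SNORA71A and SNORA71D differed by -0.21 and -0.12. SNORA3B in RPL27A read 8.01 against 8.33 (-0.32), and SNORA3A of the same host 9.43 against 9.59 (-0.16). The 3 SNORA71 rows and both SNORA3 rows were all lower, although copies within a family are alike and may share signal.

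SNORA51 and SNORD57 are encoded in NOP56, the gene of a core C/D box protein, and differed by -0.29 and -0.26. SNORA38B, SNORA14A and SNORA67 completed the 8 lowest SNORA rows at -0.27, -0.25 and -0.22. The highest were SNORA37 in MBD2 (6.83 against 6.61, 0.23), SNORA2B in KANSL2 (0.21), SNORA7B in the pseudogene RPL32P3 (0.21) and SNORA16B in PPP2R5A (0.19). SNORA70B, SNORA80B, SNORA38 and SNORA5B followed at 0.18, 0.12, 0.12 and 0.09. SNORA80B lies in ODC1, the polyamine synthesis gene, which itself differed by -0.22. In TBRG4, SNORA5A (-0.05) and SNORA5C (-0.08) were lower and SNORA5B was higher. The 3 SNORA15 rows of CCT6A, a chaperonin gene, differed by -0.01, -0.01 and -0.08. The bright rows SNORA68, SNORA21 and SNORA22 differed by -0.07, -0.16 and -0.18.

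The Cajal body RNA rows differed in sign from member to member. With 1 array per group, such differences cannot be told apart from the noise of single probe sets. SCARNA17, a guide for the spliceosomal RNAs U4 and U12, was higher in both of its rows, at 9.75 against 9.46 (0.29) and 9.88 against 9.70 (0.18). SCARNA9, a U2 guide, was higher in both rows, at 9.06 against 8.80 (0.27) and 6.63 against 6.37 (0.26). SCARNA7, a U1 guide, read 9.89 against 9.65 (0.24), and SCARNA8, a U2 guide, read 7.07 against 6.86 (0.21). For SCARNA17 and SCARNA9 the separate rows of 1 gene thus gave the same sign, while those of SCARNA9L did not.

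Other Cajal body RNAs were lower. SCARNA1, in PPP1R8, read 6.60 with doxycycline and 6.81 without (-0.21), and SCARNA12, a U5 guide within PHB2, 9.74 against 9.94 (-0.21). SCARNA22, within NSD2, read 7.53 against 7.72 (-0.20). SCARNA6, SCARNA11 and SCARNA10 differed by -0.07, -0.07 and -0.03, SCARNA16 by 0.04, and SCARNA5 had equal values of 8.53. SCARNA9L, a copy resembling SCARNA9, was split, with rows at -0.20 and 0.09. Under the floor, SCARNA4 read 5.61 against 5.41, SCARNA14 5.32 against 5.41 and SCARNA23 3.70 against 3.96.

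**Figure D4:**
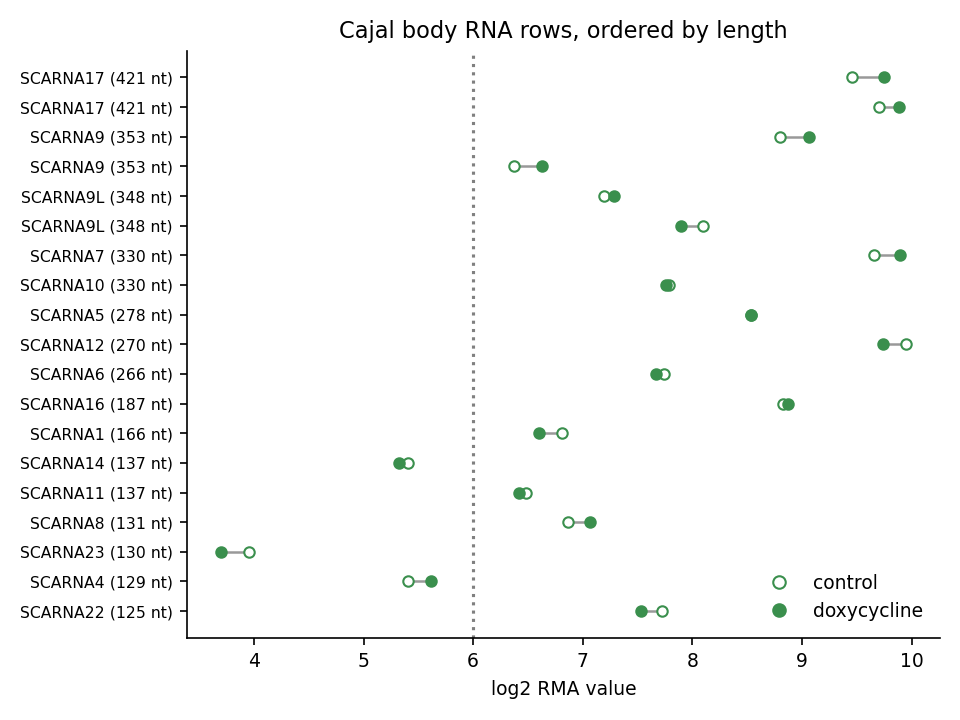
Log2 RMA values of all 19 SCARNA rows, ordered by RefSeq gene length in nucleotides (nt), open circles for the control sample, filled circles for the doxycycline sample and a dotted line at the floor of 6. Both SCARNA17 rows (421 nt) and both SCARNA9 rows (353 nt) lie to the right with doxycycline. The shorter SCARNA22 (125 nt) and SCARNA1 (166 nt) lie to the left. The short SCARNA4 (129 nt) and SCARNA8 (131 nt) also lie to the right, however. Among longer ones, SCARNA12 (270 nt) lies to the left and the SCARNA9L rows (348 nt) are split.

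Longer Cajal body RNAs tended to have higher differences, which was not seen within the other classes. RefSeq lengths at or above the floor had a median of 75 nt for SNORD, 134 nt for SNORA and 304 nt for SCARNA rows. Across the 16 SCARNA rows, which share 2 arrays and partly their genes, Spearman's rho between length and difference was 0.58. It was -0.05 across the 59 SNORD rows and 0.00 across the 49 distinct SNORA rows, and 0.25 across all 124, where it mixes the classes. Split at 200 nt, a limit chosen after the values were seen, the 112 shorter distinct rows had 86 lower and a median of -0.11, and the 12 longer ones had 4 lower and a median of 0.05. Of these 12 rows 11 are SCARNA, so this split nearly repeats the one by class. Within SCARNA, the 5 rows up to 200 nt had a median of -0.07 and the 11 longer rows a median of 0.09. The RNA was isolated on silica columns that are known to retain short RNA poorly, and the part of length or recovery in these differences was not tested.

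Several other kinds of structured non-coding RNA read on the same arrays were lower too, but the Y RNA RNY1 was not, at 1.26 above its control value. Rows of the spliceosomal snRNAs, which the SCARNAs modify, were lower in 12 of 14 distinct rows, with a median of -0.19. The lowest, RNU5B-1 at 5.65 against 6.34 (-0.695), reached 6 in the control sample alone, so it could only count as lower. RNU2-1 and RNU6ATAC have several of these rows each, so the rows are not all separate genes. RNU2-1, the U2 RNA, has 3 distinct rows, at -0.14, -0.21 and -0.15. RNU4-1 read 7.96 with doxycycline and 8.41 without, RNU4ATAC 7.16 against 7.63, and RNU12, the U12 RNA, 7.46 against 7.45. The RNA subunits of RNase MRP (RMRP, -0.29), RNase P (RPPH1, -0.26) and telomerase (TERC, itself an H/ACA box RNA, -0.20) were all lower. MicroRNA rows, by contrast, were balanced, with 33 of 65 lower and a median of -0.01. No test of the difference between these sets was possible at 1 sample a group.

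Hosts of C/D box RNAs had a median difference nearer to 0 than the RNAs themselves. A member was paired with a host where exactly 1 longer gene contained it in RefSeq and that gene had a row of its own, without regard to strand, which gave 71 pairs with 50 hosts. For SNORD, the member lay below its host in 18 of 26 pairs, with medians of -0.14 for members and -0.05 for hosts. The 18 include SNORD14E and SNORD96B, which reached 6 in the control sample alone. They also include the pseudogene rows SNORD13P3 and SNORD13P2, the latter nearly level with its host. For SNORA the member lay below its host in 17 of 34 pairs (-0.07 and -0.04), and for SCARNA in 4 of 11 (0.00 and -0.06). RPL3 itself read 13.16 against 13.10 (0.06), and HSPA8, the host of the U14 copies, 13.73 against 13.82 (-0.09). Across the 71 pairs Spearman's rho was -0.02, where members of 1 host share its value. A long intron-containing precursor and the short mature RNA cannot be told apart by a member's probes.

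**Figure D5:**
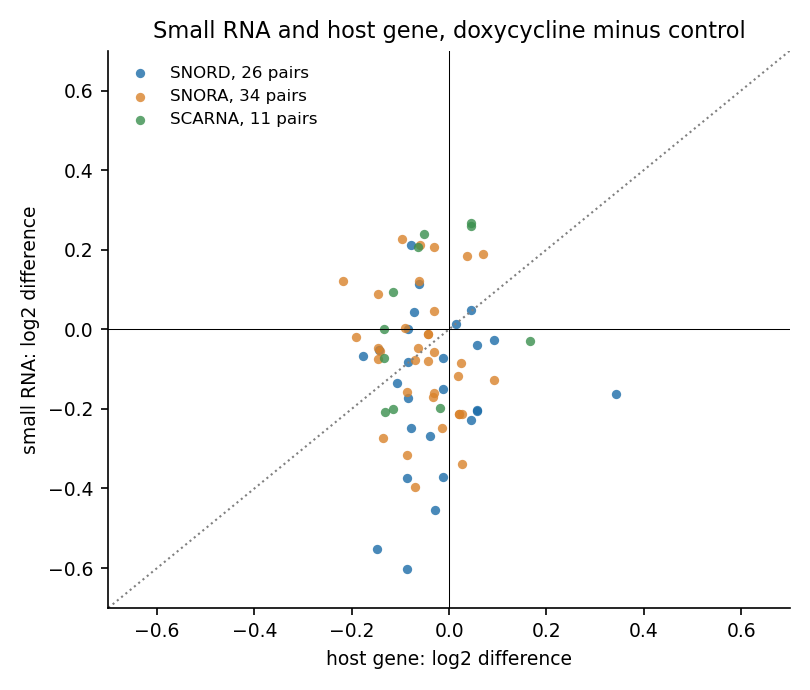
Log2 difference of each member at or above the floor against that of the host gene containing it, for 26 SNORD, 34 SNORA and 11 SCARNA pairs, with a dotted line where both are equal. Host differences lie between -0.22 and 0.34, while SNORD members reach down to -0.60, and 18 of 26 SNORD points lie below the line. The point at 0.34 is KIF9, which contains the pseudogene SNORD13P3.

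Members were also counted by the kind of host. In 16 ribosomal protein genes, 23 of 30 rows were lower, with a median of -0.15. In 14 non-coding hosts, 20 of 24 were lower, also with a median of -0.15, and the 4 that were higher included both rows of SCARNA17. In 40 other coding hosts, 36 of 55 were lower, with a median of -0.06. Of SNORD rows alone, the medians were -0.14, -0.14 and -0.16 in the same order, so within that class the medians differed little between kinds of host. The other coding group holds 25 SNORA rows and 12 SCARNA rows, and the ribosomal protein group 12 SNORA rows and no SCARNA row. The row in the pseudogene RPL32P3 (SNORA7B) is left out of these counts.

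The pyrimidine start shown above was common among hosts. It was present in 21 of 58 hosts with an entry in the promoter table (36.2%) and in 1104 of all 27305 genes there (4.04%). The run was found in 9 of 10 ribosomal protein hosts, 4 of 13 non-coding hosts and 8 of 35 other coding hosts. Of 31 rows in hosts with the run, 27 were lower, with a median of -0.15, and of 56 rows in hosts without it, 36 were lower, with a median of -0.08. The 27 include SNORD96B and the 36 include SNORD14E, both of which reached 6 in the control sample alone. These rows were not split by class, and the ribosomal protein hosts hold no SCARNA row. The parts of the run and of the mix of classes in this difference were therefore not separated. The search was chosen after the values were seen, and a match in the letters is no proof of a TOP start. A missing match at the annotated base is no evidence against a TOP start either, and GAS5, SNHG1 and RPL3 count here as hosts without the run. RPL23A and CCT6A had no entry.

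Genes of the snoRNA proteins and their assembly showed only a few differences of size. Of the H/ACA box proteins, NHP2 read 9.05 with doxycycline and 9.36 without (-0.31) and NOP10 9.80 against 10.03 (-0.23), whereas DKC1, the pseudouridine synthase, was at 0.00 and GAR1 at 0.01. Of the C/D box proteins, FBL, the methyltransferase fibrillarin, and NOP58 both differed by -0.05, and NOP56 and SNU13 had no row of their own. The list of assembly factors was lower in 8 of 11, with BCCIP, known for its part in large-subunit maturation rather than as a snoRNA assembly factor, at -0.37, RUVBL1 at -0.18 and NAF1 at -0.10, and RPAP3 above 0 at 0.10. Cajal body genes were split 2 and 2, with USPL1 at -0.14, WRAP53, which brings telomerase and SCARNAs to the Cajal body, at -0.12, COIL, its scaffold coilin, at 0.09 and SART3 at 0.03. Genes of end processing and capping were lower in 4 of 10, among them TOE1 at -0.23 and DBR1, the enzyme that opens intron lariats, at -0.11, while the exonuclease gene XRN1 was at 0.17. At 1.2-fold, NHP2 (1 of 4 H/ACA box protein genes) and BCCIP (1 of 11 assembly factors) were the ones that passed in these lists. Of all rows with 1 symbol at or above the floor, 4.22% were that much lower and 6.12% higher. So few passing genes are no result about the lists. Of 18 listed spliced hosts, all non-coding but for TAF1D, 5 had a row of their own, with a median of 0.03 and EPB41L4A-AS1 the furthest from 0 at 0.14.

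Some of these RNAs serve as reference RNAs in quantitative PCR of microRNAs, and their rows did not move together. The set was chosen after the values were seen. SNORD61 was higher by 0.39, SNORD95 was near 0 at 10.49 with doxycycline and 10.51 without (-0.03), SNORD96A was at -0.16 and SNORD44 at 10.25 against 10.45 (-0.19). Among rows that name a host as well, SNORD72 with RPL37 was at -0.01 and SNORD68 with RPL13 at -0.32.

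Rows with several symbols, which the naming rule leaves out, come from the same arrays and are no independent support. Of 76 such rows, 53 reached the floor, 44 of these were lower, and the median was -0.13. SNORD47 with GAS5 was at -0.47, SNORD27 with SNHG1 at -0.39, and SCARNA13 with SNHG10 at -0.29. SNORD1C with SNHG16 was the highest at 0.31, opposite in sign to SNORD1A of the same host.

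The snoRNAs of the imprinted regions on chromosomes 14 and 15 stayed dim in both samples. SNORD113, SNORD114, SNORD115 and SNORD116, tandem families known from brain and linked in the case of SNORD116 to Prader-Willi syndrome, gave 46 rows. None was at or above the floor (0 of 46), with values from 2.24 to 4.29 with doxycycline and from 2.32 to 4.41 without. Differences ranged from -0.86 for SNORD116-20 (3.55 against 4.41) to 0.50 for SNORD116-23 (3.58 against 3.07), with 20 lower, 23 higher and 3 equal and a median of 0.00. The copies are near-identical, so their rows are not separate measurements, and differences at this level carry no direction. Among rows left out for several symbols, one that names SNORD116-6 and SNORD116-2 read 5.85 with doxycycline and 6.27 without.

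Of the other 26 members under the floor, 17 were lower, 7 higher and 2 equal, with a median of -0.08. SNORD13P1 had the widest difference of all members, 3.51 against 2.25 (1.26), and SNORD37 read 5.77 against 5.20 (0.57). The members just inside the floor were SNORD7 (6.03 and 5.93), SNORD14E and SNORA70D (6.02 and 6.12), and those just outside were SNORA70E (5.95 and 5.96), SNORA28 (5.92 and 5.90) and SNORA70G (5.91 and 5.70), with the doxycycline value first. Without a floor, SNORD rows were 73 lower, 37 higher and 5 equal, with a median of -0.11. Of the 64 SNORA rows 47 were lower with a median of -0.08, and of the 19 SCARNA rows 9 were lower with a median of 0.00. Among all 19460 rows with 1 symbol and no floor, the median was 0.00.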

How the data were processed

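Total RNA from 2 K562 cultures, extracted on RNeasy columns, was put on 1 Affymetrix array per culture after sense-strand labelling, per the labels' protocols. The series' text speaks of HG-U133 Plus2, whereas the probe sets belong to a Gene ST array. The values the authors deposited are log2 RMA values. The submitters' processing notes name Expression Console 1.1.1. Quantile normalization within RMA forces both arrays to one distribution, so a change common to all RNAs would not be seen. The log base was inferred from RMA and the range, 1.61 to 14.6. No genome build is stated.

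Members were chosen by platform symbol. All 198 rows matched NCBI RefSeq (GRCh38.p14) by Entrez ID, the source of lengths, containing genes and sequences. Strands of hosts were not compared, and base composition of members was not analysed here. The members, lists, floor and folds were chosen with earlier results of these data known. With 1 sample per group no p-value was computed. The 1.2-fold counts, the split by length, the pyrimidine search and the quantitative PCR references were added after the values were seen. The robust SD is 1.4826 times the median absolute deviation of the 500 named rows nearest in level, members left out. Named were the 10 lowest and 10 highest SNORD rows, 8 and 8 SNORA rows, the 5 brightest of each, every SCARNA row, hosts with at least 3 rows (1 is not reported here), members of fixed role, 3 rows on each side of the floor, and up to 4 genes of each pathway list. Other members named, such as those sharing a host, were chosen after their values were seen. Values of different probe sets were not ranked as amounts. The 14 alternatives comprised 11 planned and 3 added ones. The calculation was tested on simulated data. Software was matplotlib 3.10.9, scipy 1.17.1, pandas 2.3.3, statsmodels 0.14.6 and numpy 2.4.6 under Python 3.11.15.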

Additional observations from a re-analysis of the deposited data

How the results depend on the processing

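No paired analysis was possible because each group held 1 sample, and for the same reason no sample could be left out. Over 14 alternatives, 3 of them chosen after seeing the data, the SNORD median ranged from -0.15 to -0.11 and the SNORA median from -0.16 to -0.07. Several alternatives could not move the SNORD median, since they returned the same 59 rows. These were 1 row per symbol, no imprinted families, RefSeq symbols and identical rows counted once. Quantile normalization had also been applied before, within RMA. The SCARNA median ranged from -0.03 to 0.11 and changed sign, to -0.0303, with 1 row per symbol. Counts followed the floor. Without a floor, SNORD rows at least 1.5-fold higher numbered 1, and at least 1.2-fold lower 26 and higher 8. With a floor of 5, SNORD rows at least 1.2-fold higher numbered 2. With a floor of 7, SNORD rows at least 1.5-fold lower numbered 1. With a floor of 8 they numbered 0, with 7 at least 1.2-fold lower and 0 higher, and SNORA rows at least 1.2-fold lower numbered 3. With every row that names a member, 3 SNORD rows were at least 1.2-fold higher and 1 SCARNA row lower. With 1 row per symbol, 1 SCARNA row was at least 1.2-fold higher. Median centring, quantile normalization and removal of a loess trend (span 0.3) left 47, 48 and 48 of 59 SNORD rows lower. The number of arrays limits the precision of every value.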

Other observations

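Single rows of other short RNAs are given here as values. RNY1, a Y RNA bound by the Ro autoantigen, read 6.26 with doxycycline, which was 1.26 above its control value, itself under the floor. VTRNA1-3, a vault RNA, read 6.67 against 7.05 (-0.38). In 7 of 198 members (3.54%) the deposited values of both samples were identical to the last digit, as they were in 735 of all 33297 rows (2.21%), so an equal value is not rare in this table.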
